A study of Mus musculus with 21 samples.

Results

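The genes described here are 8 mouse heat shock genes, namely Hspa1a, Hspa1b, Hspa8, Hsph1, Dnajb1, Hsp90aa1, Hspd1 and Hspe1. They were chosen by name, with earlier results of these data known, out of 18194 genes with a probe set of their own on the arrays. Of their 20 probe sets, 18 passed a filter on low signal, and each gene was read from whichever of its probe sets was brightest on average, so that all 8 were among the 12169 genes tested. The 2 probe sets left out belonged to Hsp90aa1.

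The cells came from female C57BL/6 mice of 7 to 8 weeks in a model of resolving peritonitis, in which zymosan, a yeast cell wall preparation, is injected into the peritoneal cavity. Each of the 7 groups had 3 arrays, labelled as biological replicates. The groups were Ly-6B+ Ly-6G- bone marrow monocytes of naive mice, Ly-6B+ Ly-6G- peritoneal monocytes at 4 h, Ly-6G- cells positive or low for Ly-6B at 18 h, F4/80+ CD11b+ macrophages at 72 h, macrophages of 168 h split into a Ly-6B+ fraction (F4/80 medium to high) and a Ly-6B- fraction (F4/80 high), and resident peritoneal macrophages of naive mice, with high CD11b and high F4/80. The gate at 18 h was wider in Ly-6B than that at 4 h, so the time and the wider gate cannot be told apart in that comparison. The cells of 72 h were labelled by F4/80 and CD11b, those of 18 h by Ly-6B and Ly-6G. Time and gate therefore cannot be told apart at 72 h against 18 h either. Cells were stained on ice and sorted before RNA extraction, and only the bone marrow cells went through red cell lysis. Nothing in the labels says whether mice were pooled.

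Heat shock proteins are molecular chaperones: they bind unfolded or partly folded proteins and help them to fold, to stay soluble or to be degraded. HSP70 proteins bind exposed hydrophobic stretches in a cycle driven by ATP, J-domain proteins deliver the clients and start ATP hydrolysis, HSP110 proteins exchange the nucleotide, and HSP90 takes over clients such as kinases and steroid receptors. HSP60 and HSP10 form the folding chamber of the mitochondrial matrix. Transcription of the inducible members is driven by heat shock factor 1, which binds arrays of inverted nGAAn units, and it responds to heat, oxidants and misfolded proteins, as well as to the handling of cells.

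The sequences upstream of 6 of the 8 genes were read from the RefSeq promoter table for GRCm38.p6 and searched for pairs of inverted units, GAANNTTC or TTCNNGAA, each of which reads the same on both strands. Entries for Hspa8 and Hsp90aa1 were not used here. The stretches below hold the matches upstream of the start sites in the genes discussed most, 5′ to 3′, with the matching bases in capitals. Hspa1a (chr17:34972157-34972336, minus strand) and Hspa1b (chr17:34959239-34959418, minus strand) are shown because they are near-identical copies, Hspd1 and Hspe1 (chr1:55087933-55088147, plus strand) because they share 1 intervening stretch, and Hsph1 (chr5:149636352-149636381, minus strand) because its log2 change between 4 h and 18 h was the largest of the 8 genes.
Hspa1a: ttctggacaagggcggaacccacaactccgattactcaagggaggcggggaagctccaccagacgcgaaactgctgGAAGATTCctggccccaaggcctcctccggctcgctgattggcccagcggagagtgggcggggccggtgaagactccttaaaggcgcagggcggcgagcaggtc
Hspa1b: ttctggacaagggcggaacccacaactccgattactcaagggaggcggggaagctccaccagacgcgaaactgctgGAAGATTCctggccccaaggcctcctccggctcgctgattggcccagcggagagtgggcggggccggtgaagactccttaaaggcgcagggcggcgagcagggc
Hspd1-Hspe1 interval: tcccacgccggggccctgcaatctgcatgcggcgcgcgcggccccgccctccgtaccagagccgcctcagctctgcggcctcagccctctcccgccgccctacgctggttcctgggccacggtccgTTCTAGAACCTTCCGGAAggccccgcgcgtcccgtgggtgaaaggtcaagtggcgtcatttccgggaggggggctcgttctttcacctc
Hsph1: tgggtagaatctTTCTCGAAggctcgagaa

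The Hspa1a and Hspa1b genes lie 10120 bases apart on chromosome 17. Their 300-base windows differed at 4 positions, 1 of them in the printed 180 bases, and the pair of units began 104 bases before each start site. Hspd1 is transcribed on the minus strand from position 55087932 and Hspe1 on the plus strand from position 55088148, with 215 bases between these starts. RefSeq also gives Hspd1 a second start at 55088243, from which the interval lies inside the gene. The run in capitals there holds 4 units in alternating orientation (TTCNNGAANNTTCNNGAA), a form found in 8 of 32851 promoter windows, or 0.0244%, among them those of Hspd1 and Hspe1. At least 1 pair of units was found in 15.1% of the windows and 3 units in a row (GAANNTTCNNGAA or TTCNNGAANNTTC) in 0.603%. In Hsph1 the printed pair began 33 bases before the start at 149636336. A run of 3 units, in which pairs began 36 and 41 bases after that start, also lay in the Hsph1 window and is not printed. No match was found in the windows of Dnajb1. A match describes these letters only, and binding was not measured.

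The 21 arrays had median signals between 67.3 and 93.0, and precision is limited by having 3 arrays in a group. The median gene shifted by 0.14 on the log2 scale at 18 h against 4 h, by -0.14 at 4 h against bone marrow and by -0.22 at 4 h against resident macrophages. Summed signal of 7 resident macrophage markers (among them Timd4, Gata6 and Adgre1) was 123009 to 131326 in resident macrophages, against 5235 to 6664 in bone marrow monocytes. The bone marrow arrays carried 88513 to 256394 of summed signal of 10 neutrophil and progenitor genes, against 6534 to 9693 in resident macrophages, and the part of such cells in the heat shock signals was not tested. In bulk samples fewer cells of a type and less RNA per cell cannot be told apart. No heat shock gene's level is compared with another's, since probe sets differ in brightness.

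Across the 7 groups, 5 of the 8 heat shock genes differed in limma's F test at an adjusted p under 0.05, where 69.8% of all genes did. These were Hsph1 (adjusted p = 6.37e-04), Hspd1 (1.76e-04), Hspe1 (0.00144), Dnajb1 (0.0454) and Hsp90aa1 (0.0465). Hspa1a, Hspa1b and Hspa8 had adjusted p-values of 0.674, 0.385 and 0.724. The peritoneal cells of 18 h had the highest mean in 6 of the 8 genes, the exceptions being Hspa1b and Hspa8. How many of all genes had their highest mean at 18 h was not counted. The choice of probe set mattered: the further Hspa1b probe sets were highest at 18 h, at means of 17475 and 19219. The Ly-6B+ fraction of 168 h had 14551 and 18980 there. The second Dnajb1 probe set was highest in bone marrow, at 1337, against 920 at 18 h. In the brightest probe sets of Hsph1, Hsp90aa1, Hspd1 and Hspe1 the 3 arrays of 18 h lay above each of the 18 other arrays. These were 4 of 8 genes, and 2.56% of all genes showed the same. A further Hsp90aa1 probe set lost this separation, with a lowest 18 h array of 6755 and a Ly-6B+ array of 168 h at 8408. The other that passed the filter kept it, at 9029 or more against 8763 or less elsewhere, as did the second probe sets of Hsph1 and Hspe1.

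**Figure D1:**
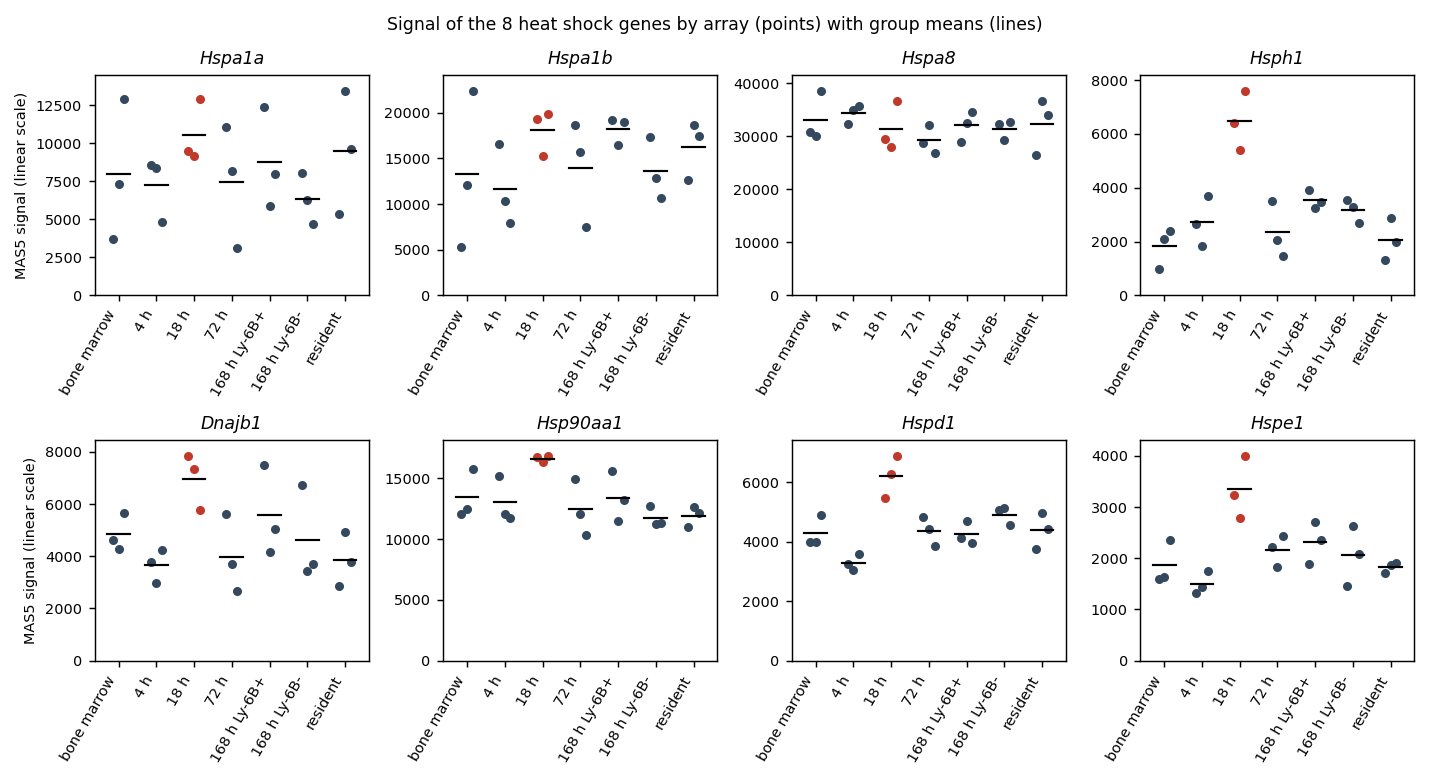
MAS5 signal on a linear scale from 0 (y axis) in the 7 groups of 3 arrays (x axis), 1 panel a gene, with points for arrays, lines for group means and the 18 h arrays in red. The 18 h points stand above all others for Hsph1, Hsp90aa1, Hspd1 and Hspe1, while Hspa1a and Hspa1b scatter widely within groups.

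Hsph1 encodes HSP110, the nucleotide exchange factor of HSP70 that also holds unfolded proteins in solution. Its signal was 997, 2085 and 2408 in bone marrow monocytes, 2664, 1820.0 and 3698 at 4 h, 6409.6, 5407 and 7598 at 18 h and 3524, 2073 and 1455 at 72 h. At 168 h it was 3899.6, 3229 and 3472 in the Ly-6B+ fraction and 3553, 3287 and 2702 in the Ly-6B- fraction, and in resident macrophages it was 1318, 2882 and 1998. The lowest 18 h array was above the highest array elsewhere, and the ranges of neighbouring groups in the order below 18 h overlapped each other. The order of means was 18 h, Ly-6B+, Ly-6B-, 4 h, 72 h, resident and bone marrow.

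Hspd1 encodes HSP60, the barrel of the mitochondrial folding chamber, and Hspe1 encodes HSP10, its lid. Hspd1 signal was 3998, 3978 and 4888 in bone marrow monocytes, 3240.1, 3054 and 3579.6 at 4 h, 5454, 6274 and 6871 at 18 h and 4818, 4428 and 3854 at 72 h. It was 4130.5, 4682 and 3961 in Ly-6B+ and 5067, 5119 and 4544 in Ly-6B- macrophages at 168 h, and 3760.2, 4959 and 4437 in resident macrophages. The 18 h arrays were the highest and those of 4 h the lowest, with no overlap between either group and its neighbour in the order of means. Hspe1 signal was 1589, 1638 and 2352 in bone marrow monocytes, 1322, 1444 and 1745 at 4 h, 3246, 2797 and 3994 at 18 h and 2214, 1832 and 2439.9 at 72 h. It was 1896, 2716 and 2362 in Ly-6B+ and 1463, 2630.5 and 2076 in Ly-6B- macrophages at 168 h, and 1716, 1868 and 1899 in resident macrophages. The 18 h arrays were again the highest, and below them the ranges of neighbours in the order overlapped. Over the 21 arrays the log2 values of the 2 genes, which share the promoter interval printed above, had a Pearson r of 0.76, given as a description since arrays of a group share their source.

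Dnajb1 encodes the J-domain partner HSP40 that delivers clients to inducible HSP70. Its signal was 4622, 4284 and 5671 in bone marrow monocytes, 3778, 2994 and 4247 at 4 h, 7831, 7326 and 5759.6 at 18 h and 5599, 3688 and 2673 at 72 h. It was 7498, 4178 and 5056 in Ly-6B+ and 6719.8, 3421 and 3698 in Ly-6B- macrophages at 168 h, and 2848, 4916 and 3774 in resident macrophages. The 18 h arrays did not overlap those of 4 h or 72 h, but 1 Ly-6B+ and 1 Ly-6B- array of 168 h lay within their range. Hsp90aa1 encodes the inducible cytosolic HSP90. Its signal was 12090.5, 12464 and 15793 in bone marrow monocytes, 15216, 12082 and 11745 at 4 h, 16734, 16316 and 16818 at 18 h and 14977, 12040.4 and 10346 at 72 h. It was 15569.9, 11464 and 13217 in Ly-6B+ and 12699, 11240.3 and 11306 in Ly-6B- macrophages at 168 h, and 11024, 12607 and 12178 in resident macrophages. The 3 arrays of 18 h were close together and above the rest, and the other 6 groups overlapped their neighbours in the order.

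Hspa1a and Hspa1b encode the same stress-inducible HSP70, and Hspa8 its constitutive relative HSC70. Hspa1a signal was 3692, 7294 and 12912 in bone marrow monocytes, 8602, 8353 and 4853 at 4 h, 9482, 9194 and 12940.5 at 18 h and 11067, 8167 and 3106 at 72 h. It was 12375, 5899 and 7958 in Ly-6B+ and 8059, 6271 and 4683 in Ly-6B- macrophages at 168 h, and 5363, 13449.7 and 9658 in resident macrophages. Arrays of 1 group differed by up to 3.56 times, at 72 h, and the ranges of neighbouring groups in the order of means overlapped throughout. Hspa1b signal was 5267, 12107 and 22381 in bone marrow monocytes, 16520.0, 10329.9 and 7965 at 4 h, 19255, 15269 and 19814 at 18 h and 18602, 15666 and 7503 at 72 h. It was 19163, 16493 and 18992 in Ly-6B+ and 17348, 12800.3 and 10686 in Ly-6B- macrophages at 168 h, and 12611, 18623 and 17403 in resident macrophages. The bone marrow arrays held both the lowest and the highest of the 21 values, with a ratio of highest to lowest of 4.25. Because the 2 transcripts are near-identical, signal of Hspa1a and of Hspa1b may come from either gene.

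Hspa8 signal was 30812, 29982 and 38542 in bone marrow monocytes, 32241, 34927 and 35720.2 at 4 h, 29529.5, 27949 and 36626 at 18 h and 28629, 32064 and 26883 at 72 h. It was 28993, 32545 and 34541 in Ly-6B+ and 32326, 29274 and 32719.8 in Ly-6B- macrophages at 168 h, and 26396, 36546 and 34084 in resident macrophages. Neighbouring groups overlapped throughout. This probe set stood at the 99.8th percentile of its array or above in each sample, close to the top of the signal range, where differences may be compressed, and that was not tested.

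The peritoneal cells of 18 h were compared first with those of 4 h, and descent of one from the other was not traced. Hsph1 and Hspe1 rose, 2 of 8 heat shock genes called at an adjusted p under 0.05 and a log2 change of at least 1, where 15.5% of all genes were called. Hsph1 averaged 6472 ± 1097 at 18 h and 2727 ± 941 at 4 h (SD, n = 3 arrays each), a log2 change of 1.29 (SE 0.33, limma adjusted p = 0.00371). Hspe1 averaged 3346 ± 605 at 18 h and 1504 ± 218 at 4 h (SD, n = 3 arrays each), a log2 change of 1.14 (SE 0.20, limma adjusted p = 1.07e-04). In both genes the arrays of 18 h and 4 h did not overlap.

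Another 3 genes were higher at 18 h with an adjusted p under 0.05 but a log2 change under 1, so that 5 of 8 heat shock genes met the adjusted p alone, against 27.5% of all genes in that direction. Hspd1 differed by 0.91 (SE 0.13, limma adjusted p = 8.62e-06), Dnajb1 by 0.92 (SE 0.28, adjusted p = 0.0108) and Hsp90aa1 by 0.36 (SE 0.14, adjusted p = 0.0441). For the HSP70 genes the 95% intervals of the log2 change were -0.39 to 1.52 for Hspa1a, -0.12 to 1.52 for Hspa1b and -0.41 to 0.14 for Hspa8, and none of these 3 passed. The median change of the 8 genes was 0.80 and that of all genes 0.14. With all arrays brought to 1 median, Hsp90aa1 changed by 0.30 and lost the adjusted p (limma, 0.146).

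The macrophages of 72 h were then set against the cells of 18 h. These groups were sorted by different markers, so a difference may come from the time or from the gate. Descent of one from the other was again not traced. Hsph1 fell, the 1 of 8 heat shock genes called, where 12.5% of all genes were called. It averaged 2351 ± 1062 at 72 h and 6472 ± 1097 at 18 h (SD, n = 3 arrays each), a log2 change of -1.54 (SE 0.33, limma adjusted p = 0.00122), and the arrays did not overlap. By the adjusted p alone, 5 of 8 heat shock genes were lower at 72 h, against 13% of all genes in that direction. They were the same 5 genes, but the 18 h arrays serve in both comparisons, so the 2 counts are not independent. The log2 changes were -0.86 for Dnajb1, -0.62 for Hspe1, -0.50 for Hspd1 and -0.43 for Hsp90aa1 (limma adjusted p = 0.0226, 0.022, 0.00434 and 0.0224). Dnajb1, Hspe1 and Hsp90aa1 lost the adjusted p in some alternative settings, where it reached 0.143, 0.112 and 0.140 by limma. Hspa1a, Hspa1b and Hspa8 differed by -0.67, -0.47 and -0.10 and did not pass. The median of the 8 genes was -0.56 and that of all genes 0.03.

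**Figure D2:**
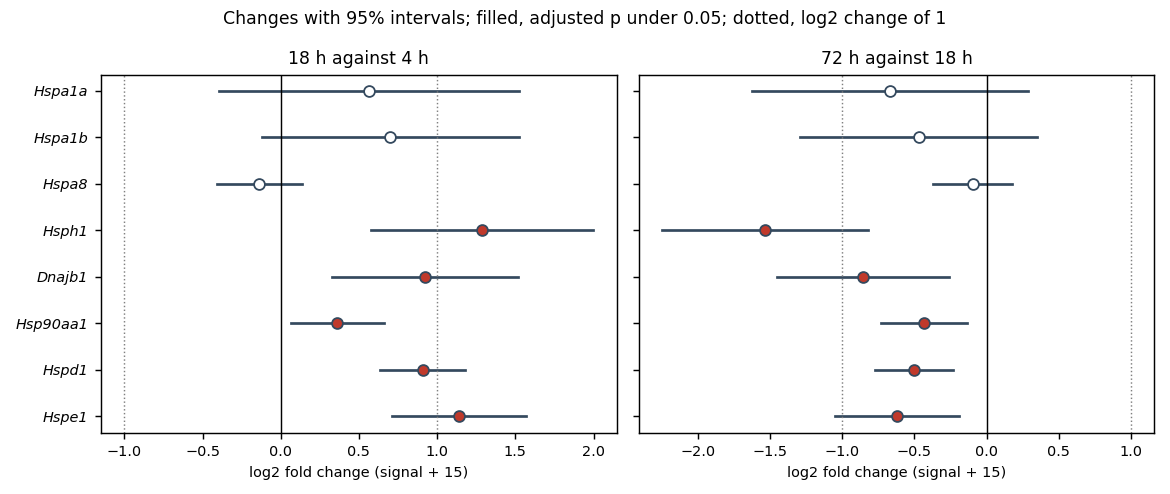
Log2 fold change of signal + 15 (x axis) with 95% intervals (lines) for the 8 heat shock genes (rows) at 18 h against 4 h (left) and 72 h against 18 h (right), with filled points for an adjusted p under 0.05 and dotted lines at a log2 change of 1 in either direction. The same 5 genes are filled in both panels, to the right of 0 on the left and to the left of 0 on the right, and they share the 18 h arrays.

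Other measures moved between these groups too. The ratio of the 3′ to the 5′ Gapdh control probe sets, a measure of RNA integrity and of labelling, was 1.64 to 2.12 at 18 h, against 2.47 to 2.70 at 4 h and 1.98 to 2.46 at 72 h. With this ratio as a covariate, Hsph1 at 18 h against 4 h changed by 1.68 (limma adjusted p = 0.00918), Hspe1 by 1.09 (0.00649) and Dnajb1 by 1.47 (0.00387), so that 3 heat shock genes were called. The ratios of 18 h and 4 h did not overlap, so this fit cannot separate the ratio from the groups. The summed signal of the 10 neutrophil and progenitor genes was 2463 to 3037 at 18 h, against 10175 to 11138 at 4 h, and 2 of 10 were called lower. That of 4 B cell genes was 1962 to 3297 at 18 h, against 1036 to 1478 at 4 h, and 1 of 4 was called higher. At 72 h it was 626 to 7986, 1 array standing far above the others. The resident macrophage markers summed to 10268 to 13352 at 4 h, 23722 to 25493 at 18 h and 89687 to 123512 at 72 h, with no overlap between these groups. The 4 erythroid and platelet genes measured summed to 1826 to 3161 at 4 h, 9419.9 to 11911 at 18 h and 28889.9 to 30977 at 72 h. Most of it was signal of Pf4, a chemokine named for platelets, which averaged 29694 ± 1069 at 72 h (SD, n = 3 arrays). The same sum was 32104 to 38030 in resident macrophages of naive mice. Whether platelets or the macrophages themselves gave this signal was not tested. The 6 mast cell and eosinophil genes summed to 244 and 253 in 2 arrays of 72 h and to 4359.7 in the third, against 388 to 540.4 at 18 h. The part of these cells in the heat shock signals was not tested.

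In the comparisons other than 18 h against 4 h and 72 h against 18 h, no heat shock gene was called in its brightest probe set. Cells of 168 h were not compared with those of 72 h or 18 h. At 4 h against bone marrow 0 of 8 were called by limma, where 22% of all genes were. An adjusted p under 0.05 was reached by 1 of 8, where 46.6% of all genes did, and by unadjusted p no other heat shock gene was under 0.05. That gene, Hspd1, averaged 3291 ± 267 at 4 h and 4288 ± 519.8 in bone marrow monocytes (SD, n = 3 arrays each), a log2 change of -0.38 (limma adjusted p = 0.0189), and 30.1% of all genes were lower by the adjusted p alone. Against resident macrophages, 0 of 8 were called at 4 h by limma, where 30.9% of all genes were. Here too 1 of 8 had an adjusted p under 0.05, where 56.7% of all genes did, and by unadjusted p no other was under 0.05. It was again Hspd1, at -0.41 (limma adjusted p = 0.00962), with 37.3% of all genes lower by the adjusted p alone. Both comparisons share the 4 h arrays, whose median signal was low. With a common array median the Hspd1 changes were -0.28 and -0.18 and did not pass (limma adjusted p = 0.127 and 0.318).

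In their brightest probe sets, 0 of 8 heat shock genes were called by limma in resident macrophages against bone marrow monocytes, where 23.1% of all genes were. Further probe sets of Hsp90aa1 and Hspa8 passed both thresholds in this comparison, at log2 changes of -1.01 and 1.58. The other 3 comparisons also gave 0 of 8. The Ly-6B+ against the Ly-6B- fraction of 168 h called 3.94% of all genes, Ly-6B- macrophages of 168 h against resident macrophages 0.0411%, and macrophages of 72 h against resident macrophages 0.731%. With so few genes called there, 0 of 8 is close to the share of all genes. In each of these 4 comparisons 0 of 8 heat shock genes had an adjusted p under 0.05, where 47.5%, 8.16%, 0.0493% and 1.15% of all genes did, in the order given. By unadjusted p it was also 0 of 8 in this unpaired fit, and the share of all genes at that threshold was not counted. The replicate numbers were taken to pair the arrays of the 2 fractions of 168 h, which the labels do not state. In 3 of 3 such pairs Hspa1b, Dnajb1, Hsp90aa1 and Hspe1 were higher and Hspd1 lower in Ly-6B+ than in Ly-6B- macrophages. These were 5 of 8 genes, where 49.3% of all genes went one way in 3 of 3 pairs. In a limma fit of these 6 arrays with the pair as a block, added after seeing the data, 4 of 8 heat shock genes had an unadjusted p under 0.05, where 28.5% of all genes did, and 0 of 8 had an adjusted p under 0.05. The lowest was that of Hspa1b, at a log2 change of 0.45 (limma adjusted p = 0.0515). The 95% intervals were wide for the inducible HSP70 genes: in resident macrophages against bone marrow monocytes that of Hspa1b was -0.32 to 1.33, and in Ly-6B+ against Ly-6B- macrophages that of Hspa1a was -0.53 to 1.39. They were narrower for Hspd1 and Hspa8, at -0.28 to 0.27 and -0.41 to 0.14 in macrophages of 72 h against resident macrophages.

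Arrays of 1 group differed in concert for several of the genes. Hspa1b had its highest and its lowest array in the same place as Hspa1a in 7 of 7 groups. Signal of either gene may reach the probe sets of both, so this match is not separate evidence. Hsp90aa1 shared the highest array with Hspa1a in 7 groups and the lowest in 6. Hsph1 shared both in 6 of 7 groups. Over the 12168 other genes, among them the heat shock genes just named, 0.0575% had the same highest array as Hspa1a in 7 groups. Both the highest and the lowest array were shared in at least 6 groups by 0.074%. Dnajb1 shared the highest array in 5 groups and the lowest in 3, Hspd1 in 4 and 3, Hspa8 in 3 and 3, and Hspe1 in 2 and 3. The group whose 3 arrays agreed most closely for Hspa1b was the Ly-6B+ fraction of 168 h, with a ratio of highest to lowest of 1.16.

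**Figure D3:**
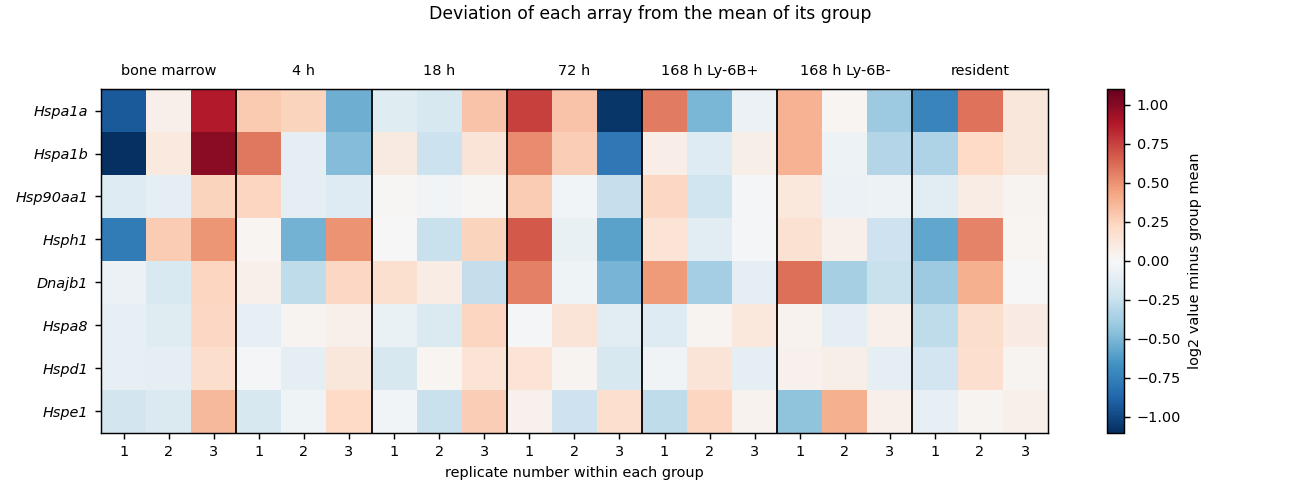
Log2 value minus the mean of its group (colour scale, red above and blue below) for the 8 heat shock genes (rows) in the 21 arrays (columns, by group and replicate number). Hspa1a, Hspa1b, Hsp90aa1 and Hsph1 tend to be red and blue in the same arrays, such as bone marrow replicates 3 and 1, while Hspe1 often is not.

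Immediate early genes such as Fos and Egr1 also respond to the handling of cells. Of 14 such genes, 2 (Fosb and Klf6) had the same highest array as Hspa1a in at least 5 of 7 groups, where 6.33% of all genes did. The highest Hspa1a array was replicate 1 in 4 groups, replicate 3 in 2 and replicate 2 in 1. The labels give no sorting time or batch, so none could be tested.

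The genes with the most similar profile over the 21 arrays were named by the largest Pearson r among all genes tested, as a description. For Hsph1 they were Chordc1 (0.90), Ahsa2 (0.89) and Dnaja1 (0.87), for Hspd1 Ahsa1 (0.92), Mif (0.89) and Xpot (0.88), and for Hspe1 Glrx5 (0.88), Cct5 (0.86) and Mrps25 (0.86). Chordc1 and Ahsa1 are cochaperones of HSP90, and Dnaja1 is a J-domain partner of HSP70. Hspa1a was closest to Hspa1b (0.86), Hsp90aa1 (0.74) and Urb2 (0.69), and Hsp90aa1 to Slc39a6 (0.86), Cacybp (0.84) and Cnot6 (0.81). For Dnajb1 they were Bicd2 (0.81), Hsp90aa1 (0.80) and Foxj3 (0.77), and for Hspa8 Lyz2 (0.81), Jph4 (0.75) and Orly (0.71).

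Probe sets of 1 gene did not always give 1 answer. The second Hsph1 probe set gave log2 changes of 1.28 at 18 h against 4 h and -1.46 at 72 h against 18 h (limma over all probe sets, adjusted p = 0.00671 and 0.00347). The second Hspe1 probe set gave 0.81 and -0.57 (adjusted p = 0.00241 and 0.034). The 2 further Hspa1b probe sets gave 0.93 and 1.00 at 18 h against 4 h and did not pass (adjusted p = 0.155 and 0.131). The second Dnajb1 probe set gave 0.12 at 18 h against 4 h (adjusted p = 0.702), against 0.92 in the first. The 2 further Hsp90aa1 probe sets gave 0.50 and 0.51 at 18 h against 4 h and did not pass (adjusted p = 0.138 and 0.133). At 72 h against 18 h one gave -1.05 (adjusted p = 0.00374), past both thresholds, and the other -0.50 (adjusted p = 0.164). The first of these was lower in resident macrophages than in bone marrow monocytes, 3771 ± 1480.4 against 7312 ± 1295 (SD, n = 3 arrays each), a log2 change of -1.01 (limma adjusted p = 0.00274), where the main probe set gave -0.16. That further probe set was also higher at 4 h than in resident macrophages, by 0.95 (limma adjusted p = 0.00344). At 4 h against bone marrow the second probe sets of Hsph1 and Dnajb1 gave 0.89 and -0.63 (limma adjusted p = 0.0466 and 0.0199).

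The probe sets of Hspa8 disagreed as well. One of them averaged 14523 ± 1082 at 4 h and 8453 ± 1563 in bone marrow monocytes (SD, n = 3 arrays each), a log2 change of 0.79 (limma adjusted p = 4.85e-04), and it was also higher at 4 h than in resident macrophages, by 0.95 (adjusted p = 5.64e-05). The dimmest averaged 208 ± 6.40 at 4 h and 991 ± 375 in resident macrophages, a log2 change of -2.10 (adjusted p = 2.75e-04). The brightest gave 0.06 and 0.10 in the same comparisons. In resident macrophages against bone marrow monocytes the dimmest gave 1.58 (limma adjusted p = 0.00437) and the brightest -0.04. The remaining probe set was higher at 4 h than in resident macrophages, by 0.59 (limma adjusted p = 0.0017). Which part of the transcript each probe set reads was not analysed here.

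**Figure D4:**
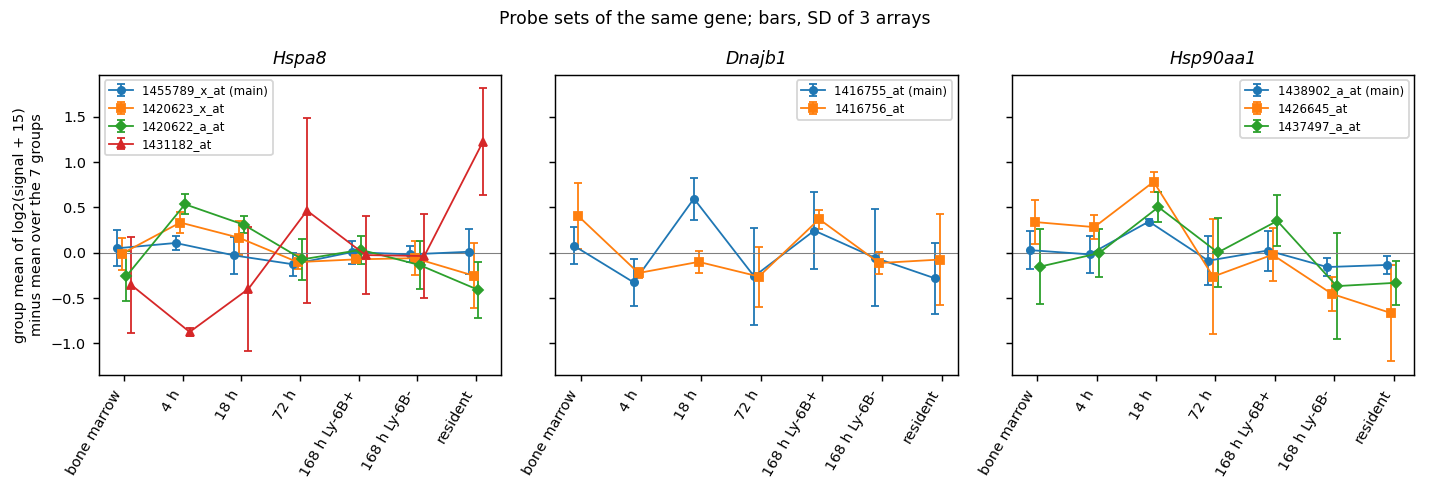
Group mean of log2(signal + 15) minus the mean over the 7 groups (y axis) for each probe set that passed the filter (colours), with bars for the SD of 3 arrays, in Hspa8, Dnajb1 and Hsp90aa1. The Hspa8 probe sets run in opposite directions at 4 h and in resident macrophages, and the second Dnajb1 probe set has no peak at 18 h.

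The other genes of the chaperone network were taken by list. Of 17 cochaperones of HSP70 and HSP90, 4 rose at 18 h against 4 h, namely Fkbp4, Fkbp5, Cacybp and St13, where 10.9% of all genes did, and the list's median log2 change was 0.58. Fkbp4, an HSP90 partner in steroid receptor complexes, averaged 1380.2 ± 254 at 18 h and 518 ± 128 at 4 h (SD, n = 3 arrays each), a log2 change of 1.40 (limma adjusted p = 7.98e-07). By the adjusted p alone 10 of the 17 were higher and 2 lower, where 27.5% of all genes were higher and 12.5% lower. One of those lower was Bag3, a partner of inducible HSP70, at -0.65 (limma adjusted p = 0.0347). At 72 h against 18 h, 0 of 17 were called by limma, and 7 were lower and 1 higher by the adjusted p alone, where 13% of all genes were lower and 17.5% higher.

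The cytosolic chaperonin TRiC, which folds actin and tubulin, receives clients from prefoldin. Of 13 subunits of the 2 complexes, 9 were higher at 18 h than at 4 h by limma's adjusted p alone, against 27.5% of all genes. These were Pfdn1 and the 8 TRiC subunits, Tcp1 and 7 Cct genes, a grouping made after their values were seen, with log2 changes of 0.35 to 0.83 for TRiC, and 0 of 13 reached a log2 change of 1. Cct3 had 11845, 12319 and 13785 at 18 h, against 7044, 6751 and 7580.0 at 4 h, a log2 change of 0.83 (limma adjusted p = 4.26e-06). At 72 h against 18 h, 7 of the 13 were lower by the adjusted p alone, against 13% of all genes, among them 6 of the 8 TRiC subunits, whose log2 changes were -0.70 to -0.25. The summed signal of the 13 chaperonin and prefoldin genes was 96559 to 103872 at 18 h, and the highest of any other group was in bone marrow, at 73992 to 83693.

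In the mitochondrion, 6 of 11 chaperones and proteases were higher at 18 h than at 4 h by limma's adjusted p alone, against 27.5% of all genes, and 0 of 11 reached a log2 change of 1. Hspa9, the HSP70 of the matrix, averaged 5620.4 ± 532 at 18 h and 3046 ± 414 at 4 h (SD, n = 3 arrays each), a log2 change of 0.89 (limma adjusted p = 2.36e-05), and Trap1, the matrix HSP90, differed by 0.85 (adjusted p = 3.77e-05). HSP70 and HSP110 relatives and J-domain proteins gave no common direction: 2 of 9 and 1 of 13 rose at 18 h against 4 h, where 10.9% of all genes did, and their median changes were -0.16 and -0.18. Hspa5, the HSP70 of the endoplasmic reticulum, differed by -0.16 (limma adjusted p = 0.419). Of the heat shock factors, Hsf2 differed by -0.12 (limma adjusted p = 0.778), and Hsf1 was not analysed here, nor were Hsp90ab1, Ptges3 and Ppid.

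**Figure D5:**
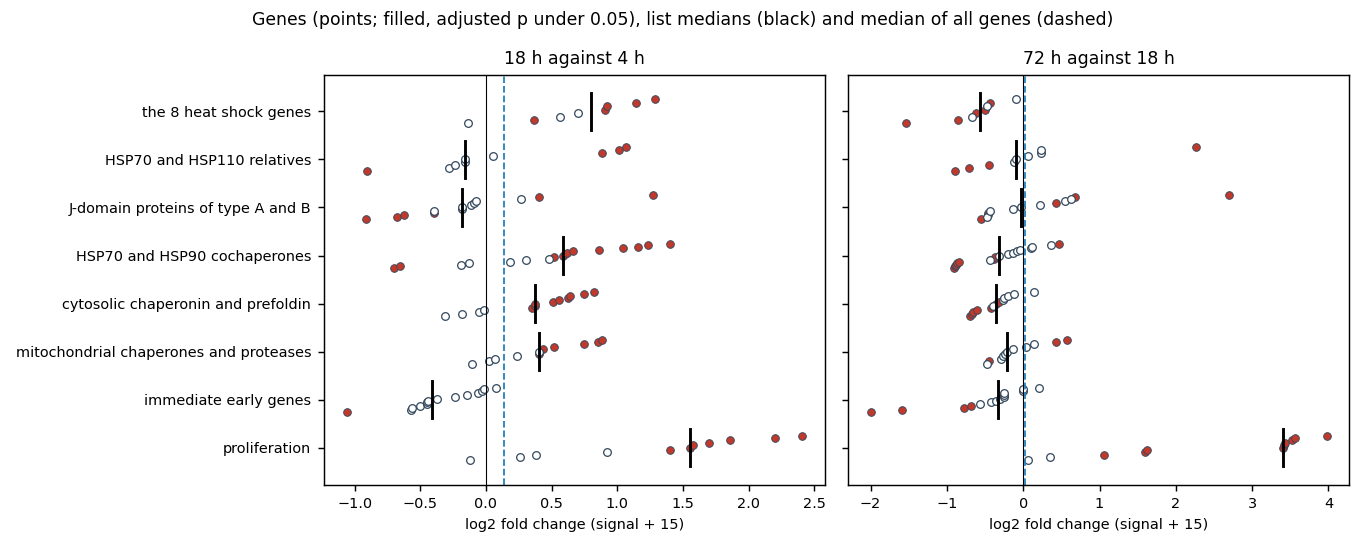
Log2 fold change of signal + 15 (x axis) of single genes (points, filled for an adjusted p under 0.05) by list (rows) at 18 h against 4 h (left) and 72 h against 18 h (right), with list medians as black lines and the median of all genes dashed. The 8 heat shock genes, the cochaperones and the chaperonin lie mostly right of the dashed line on the left and left of it on the right, while the proliferation genes lie right of it in both.

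Of 11 proliferation genes 7 rose at 18 h against 4 h and 9 rose at 72 h against 18 h, where 10.9% and 9.03% of all genes did, with median log2 changes of 1.55 and 3.40, where the heat shock genes had 0.80 and -0.56. Of the 14 immediate early genes 1 fell at 18 h against 4 h, Junb, at a log2 change of -1.06 (limma adjusted p = 0.0121), and 2 fell at 72 h against 18 h, Egr2 and Nr4a1, where 4.56% and 3.46% of all genes fell.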

How the data were processed

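RNA of 21 samples, 100 ng each, was labelled in 2 cycles and measured on Affymetrix arrays, per the labels' protocols. The authors deposited linear MAS5 intensity, for which the submitters' processing notes name Affymetrix Expression Console 1.2. All arrays were checked to have a 2% trimmed mean of 500.0. Each signal plus 15, the rounded 20th percentile, was put on the log2 scale, so fold changes of dim genes are understated. Of 45101 probe sets, 34958 had 1 gene symbol, and 932 with several and 9211 not listed were left out. Genes above the table median of 80.6 in at least 3 arrays were tested with limma 3.58.1 in R 4.3.3 (lmFit, eBayes with a trend, all 21 arrays, 14 residual degrees of freedom, 2-sided, Benjamini-Hochberg over 12169 genes). A call needed an adjusted p under 0.05 and an absolute log2 change of at least 1. There were 8 comparisons and 1 F test. On simulated data the fit was tested for recovery of known changes.

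The heat shock genes and the gene lists were chosen with earlier results of these data known, as were the tests. The genes named are the 8 heat shock genes, called members of the lists, up to 3 genes of most similar profile for each, and members of a list chosen after their values were seen (Bag3, the TRiC subunits, Cct3, Hspa9, Trap1, Hspa5, Hsf2 and Pf4). Alternatives were pseudocounts of 1 and 60, quantile normalization, setting all arrays to 1 median, dropping the filter or raising it to the 75th percentile, averaging the probe sets of a gene, each other probe set, eBayes without the trend, the replicate block, no minimum fold, only the 6 arrays compared, each array left out and, added after seeing the data, the Gapdh ratio as a covariate and the fractions of 168 h fitted alone with their pairs. Replicate numbers were taken from the labels. Arrays of the same number deviated together (r of 0.30, 0.28 and 0.18 across genes) between the 2 fractions of 168 h, the one comparison with every r over 0.1, the limit set for taking the numbers as pairs. The closest match had the same number in 6 of 6 arrays there. It also did in resident macrophages against bone marrow monocytes and in 72 h against 18 h. The same held for Ly-6B- macrophages of 168 h and for 4 h, each against resident macrophages. The other comparisons gave 2 to 4 of 6. The match of numbers is thus not particular to the fractions of 168 h. Detection calls and raw image files were not used here.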

Additional observations from a re-analysis of the deposited data

How the results depend on the processing

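Hsph1 was called in each of 18 alternative settings, with log2 changes of 1.03 to 1.68 at 18 h against 4 h and of -1.87 to -1.24 at 72 h against 18 h. These settings include the one with no minimum fold, which cannot drop a called gene. Hspe1 at 18 h against 4 h was called in 17 of 18, from 0.98 to 1.26, and missed the fold when its probe sets were averaged, at 0.98 (limma adjusted p = 3.07e-04). At 18 h against 4 h the 2 called heat shock genes became 1 with probe sets averaged, 5 with no minimum fold and 2 to 3 with 1 array left out. At 72 h against 18 h the 1 called became 5 with no minimum fold, 2 with the Gapdh ratio as a covariate and 1 to 2 with 1 array left out, the 2 arising without replicate 1 of 72 h, when Dnajb1 was at -1.14. With no minimum fold, 1 gene was called at 4 h against bone marrow and 1 at 4 h against resident macrophages. Resident macrophages against bone marrow monocytes gave 0 to 1 with 1 array left out, the 1 being Hspa1b at 1.00 (adjusted p = 0.0294) without replicate 3 of bone marrow. In that comparison further probe sets of Hsp90aa1 and Hspa8 passed both thresholds, at -1.01 and 1.58. At 4 h against resident macrophages a further Hspa8 probe set did so, at -2.10. The 5 genes of the F test became 3 with no filter, 3 without the trend, 4 with probe sets averaged, 6 with a common array median and 3 to 5 with 1 array left out, 9 of the 21 arrays giving 3. No direction was reversed among called genes. By the limma adjusted p alone, at 72 h against 18 h only Hsph1 and Hspd1 stayed under 0.05 in each setting, at 0.0119 and 0.0315 or less. At 18 h against 4 h the highest adjusted p was 0.0561 for Dnajb1 and 0.389 for Hsp90aa1. The replicate block changed no count of called heat shock genes, with 2 at 18 h against 4 h and 0 in the fractions of 168 h taken as pairs, also when those 6 arrays were fitted alone. With 3 arrays a group, the 95% intervals of Hspa1a and Hspa1b at 18 h against 4 h reach up to 1.52.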

Other observations

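Some relatives of the heat shock genes also differed between groups. Hspa12a, a distant HSP70 relative, averaged 588 ± 17.1 in resident macrophages, against 34.9 ± 6.53 in bone marrow monocytes (SD, n = 3 arrays each). At 168 h it averaged 53.7 ± 20.97 in the Ly-6B+ fraction and 498 ± 30.4 in the Ly-6B- fraction. Dnaja4, a J-domain protein, averaged 165 ± 32.8 at 72 h and 13.8 ± 11.5 at 18 h, and at 168 h it averaged 51.3 ± 12.4 in the Ly-6B+ fraction and 254 ± 51.2 in the Ly-6B- fraction. In each of these comparisons the arrays did not overlap. The dimmer group lay below the filter of 80.6 each time, so that the genes were tested through the groups in which they are bright and the size of a fold would depend on the value added before the logarithm, and no fold is given. Hspb1, the small heat shock protein HSP27, averaged 662 ± 411 in resident macrophages, against 114 ± 51.2 in bone marrow monocytes (SD, n = 3 arrays each), a log2 change of 2.31 (limma adjusted p = 5.19e-05). The 2 fractions of 168 h differed by 0.40 in Hspb1 (limma adjusted p = 0.635), with overlapping arrays. These genes were chosen after their values were seen.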
